A study of Danio rerio with 6 samples.

Results

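*gja11*, a zebrafish connexin gene (Entrez gene ID 565892), was read at 3765 to 5308 counts in the 3 cr*keap1a/b* liver pools and at 0 to 10 counts in the 3 wild-type (WT) liver pools. Connexins are the membrane proteins of gap junctions. They assemble into hemichannels, and hemichannels of neighbouring cells dock to form channels through which ions and small molecules pass. In mammalian liver, hepatocytes are coupled mainly through the connexins GJB1 and GJB2, and this coupling is known for spreading calcium signals and metabolites between cells. *gja11* was selected on these same counts, so its difference between the groups is described here without a test. It was 1 of 6502 genes of the count table with a gene ID, and it was set beside every other gene whose symbol starts with gja, gjb, gjc, gjd or gje. There were 5 of those, namely *gja13.1*, *gja12.1*, *gja13.2*, *gja1b* and *gjc4a.1*, and they were taken by name rather than by value.

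The cr*keap1a/b* group held 3 pools of dissected livers from crispants at 7 days post fertilization (dpf), which had received Cas9 and guides against *keap1a* and *keap1b* at the 1-cell stage, so that knockout of these paralogs is mosaic. The WT group held 3 pools of livers from WT larvae of the same age, and each pool of either group combined 15 livers. Whether WT embryos received a control injection is not given in the sources used here, so an effect of injection itself and the loss of Keap1 cannot be told apart. Keap1 is the cytoplasmic inhibitor of the transcription factor Nrf2, and the comparison asked which liver transcripts differ when it is lost. Per the study's methods the controls were clutch siblings, but the labels do not say which pools share a clutch or whether pools of a group came from separate ones, so p-values measure the spread between these pools, which may be technical.

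Total counts over genes with an ID were 9491003 to 15030262 per pool. These totals are above the read depth stated in the study's methods, for a reason not given in the sources used here. Replicate 3 of each group, the pools with the letter b in the sample descriptions, stood apart from the others: 47.65% of the genes were at 0 in cr*keap1a/b* replicate 3 and 53.18% in WT replicate 3, against 2.83% to 13.15% in the other pools. Values for the pools with letter a alone are therefore given beside the main ones for the gap junction genes, *man1a1* and *tjp2a*. The targeted genes did not pass the test: *keap1a* had 291, 307 and 0 counts in cr*keap1a/b* pools, against 375, 0 and 379 in WT pools, and *keap1b* had 489, 309 and 0 counts in cr*keap1a/b* pools, against 314, 261 and 10 in WT pools. The libraries read the 3′ end of each transcript, where small deletions at a guide site are not seen, so these counts do not check the labels.

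*gja11* had 5308, 3765 and 5156 counts in cr*keap1a/b* replicates 1, 2 and 3, against 10, 0 and 1 counts in WT replicates 1, 2 and 3. Scaled to a common library total with TMM factors (CPM), its level was 477, 299.5 and 343 in cr*keap1a/b* pools, against 1.05, 0 and 0.0583 in WT pools. The groups do not overlap, and every cr*keap1a/b* pool was high, including replicate 3, in which 47.65% of the genes were at 0. The mean level was 373 ± 92.2 CPM in cr*keap1a/b* pools and 0.368 ± 0.588 CPM in WT pools (SD, n = 3 each).

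The floor set by 3 counts was 0.1996 to 0.3161 CPM per pool before TMM scaling, so *gja11* was at or under it in WT replicates 2 and 3 and above it in WT replicate 1. Summed over pools, *gja11* had 14229 counts in cr*keap1a/b* and 11 in WT, a ratio of 1165 after division by the TMM-scaled totals (as for every ratio of summed counts), with a 95% exact (Clopper-Pearson) interval of 651 to 2334 that covers counting error only. The ratio rests on few WT counts, 10 of the 11 in a single pool. Among the pools with letter a, the sums were 9073 counts in cr*keap1a/b* and 10 in WT (ratio 678, interval 369 to 1415), and among the pools with letter b they were 5156 counts in cr*keap1a/b* and 1 in WT (interval of the ratio 1056 to 232560).

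The limma-voom fit across 6386 genes gave *gja11* a log2 difference of 10.96 ± 2.46 (SE) in cr*keap1a/b* over WT, the difference of rank 2 among all tested genes, whose median was 0.36. Scaling by library totals alone moved that median to 0.57. Over the 17 other settings and subsets of pools in which *gja11* was fitted, the log2 difference lay between 9.98 and 12.31. Its SE in these fits went up to 53.4 (without cr*keap1a/b* replicate 2). By its level in cr*keap1a/b* pools, *gja11* ranked 283, 358 and 294 in the table, above 94.5% to 95.6% of the genes. In WT replicates 1, 2 and 3 it was above 12.6%, 0.0% and 53.2% of the genes, with 53.18% of the genes at 0 in the last of these pools. Reads of these libraries come from the transcript end, so CPM was not divided by transcript length.

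**Figure D1:**
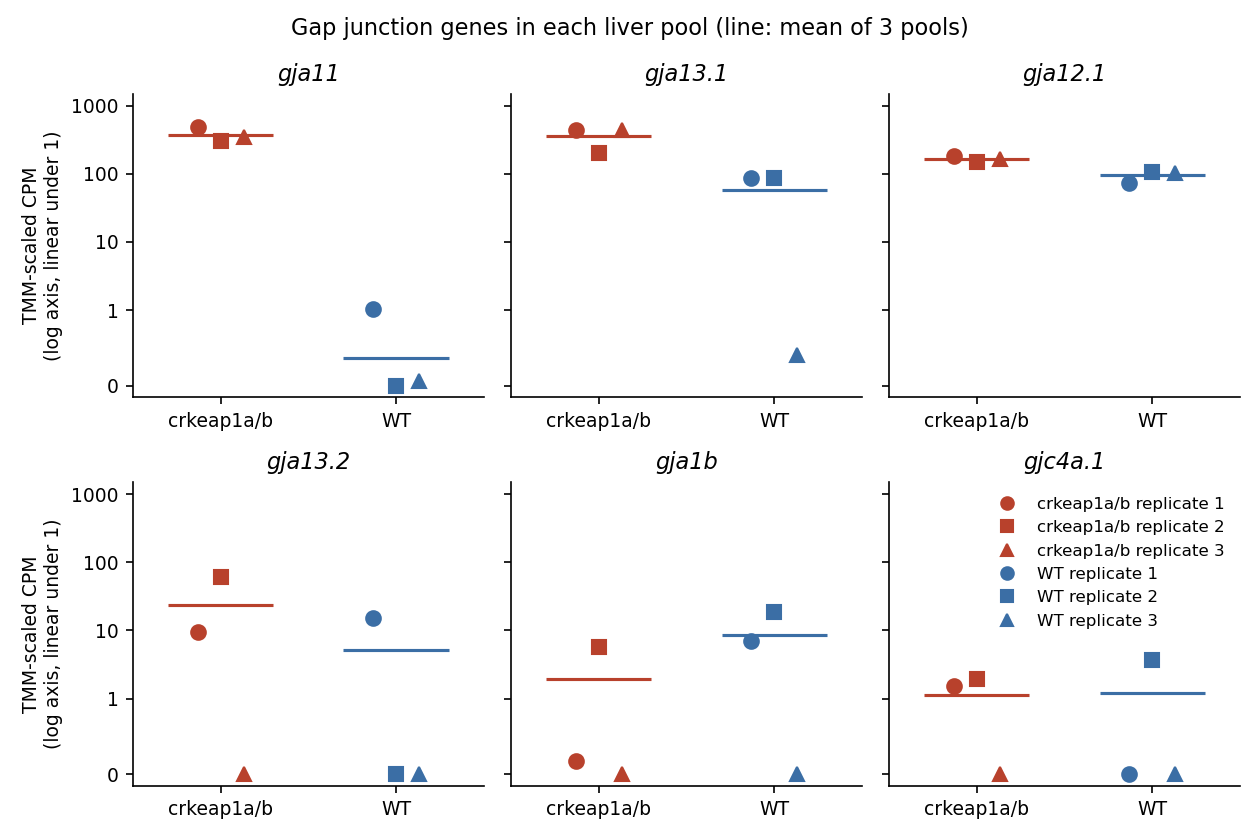
TMM-scaled CPM (y axis, logarithmic above 1 and linear below it) of the 6 gap junction genes in each liver pool, with cr*keap1a/b* in red and WT in blue. Symbols are replicates and lines are means of 3 pools. *gja11* lies at 299.5 CPM or above in every cr*keap1a/b* pool and at 1.05 CPM or below in every WT pool, and *gja13.1* and *gja12.1* are the other genes without overlap.

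On/off counts of this kind were sought with cut-offs chosen with earlier results of these data known. At most 10 counts in every WT pool and at least 1000 in every cr*keap1a/b* pool were found for 3 genes, *gja11*, *zgc:153317* and *gstp1.1*. The WT cut-off is also the highest WT count of *gja11*, so the number of genes found is no measure of how rare the pattern is. *gstp1.1*, a pi-class glutathione S-transferase gene, had 1079, 1005 and 2708 counts in cr*keap1a/b* pools, against 1, 1 and 0 in WT pools. *zgc:153317* had 1849, 1164 and 2220 counts in cr*keap1a/b* pools, against 2, 1 and 0 in WT pools. At lower levels, 40 genes were at 0 in every WT pool and above 0 in every cr*keap1a/b* pool, and so are in the table through the cr*keap1a/b* pools alone. The opposite patterns, low or at 0 in cr*keap1a/b* pools only, were not counted, so these counts have no such comparison.

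Of the 37 gap junction genes that RefSeq lists for zebrafish (assembly GRCz12tu, used for names and gene order only), 6 were in the table. These were 5 of 18 gja genes and 1 of 5 gjc genes. The other 31, including all 8 gjb genes, the family of the mammalian hepatocyte connexins, were not analysed here. None of the 5 genes beside *gja11* passed an adjusted p of 0.05 in limma-voom, in either direction. Over all 6386 tested genes, 0.595% passed as higher and 0.595% as lower (38 each), and with RLE in place of TMM factors 9 passed as higher and 27 as lower. At an unadjusted p under 0.05, 1 of the 5 was higher and 0 were lower, and edgeR's quasi-likelihood test and DESeq2 each gave the same counts, with 0 past the adjusted threshold. The share of all tested genes at that unadjusted p was not taken, here or for the lists below. Counts at this cut-off are therefore not set against the background.

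*gja13.1* (Entrez gene ID 322617) had 4881, 2495 and 6544 counts in cr*keap1a/b* pools, against 835, 699 and 7 counts in WT pools. Its level was 438, 198 and 436 CPM in cr*keap1a/b* pools, against 87.4, 85.6 and 0.408 CPM in WT pools. The groups do not overlap, and WT replicate 3 was far below the other WT pools. The mean was 357 ± 138 CPM in cr*keap1a/b* pools and 57.8 ± 49.7 CPM in WT pools (SD, n = 3 each).

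The fitted log2 difference of *gja13.1* was 5.89 ± 1.66 (SE), with an unadjusted p of 0.000712 and an adjusted p of 0.0539 in limma-voom, which did not pass. WT replicate 3 set much of this size: among the pools with letter a the summed counts were 7376 in cr*keap1a/b* and 1534 in WT, a ratio of 3.59 (95% exact interval 3.40 to 3.80), whereas the ratio was 1067 among the pools with letter b (6544 counts in cr*keap1a/b* and 7 in WT). Fitted on the 4 pools with letter a alone, the log2 difference was 1.78 ± 0.39 and passed in limma-voom (adjusted p = 0.000236), where 2.31% of the 6456 genes tested passed as higher. It also passed without cr*keap1a/b* replicate 3 (log2 difference 6.04, adjusted p = 0.000243 in limma-voom). That fit keeps WT replicate 3, and 125 of all tested genes passed as higher in it. Without WT replicate 3 the log2 difference of *gja13.1* was 1.96 (adjusted p = 0.0760 in limma-voom). It was above 0 in all 17 other settings, with adjusted p-values of 0.000236 to 1.0. The adjusted p was highest without cr*keap1a/b* replicate 2, WT replicate 1 or WT replicate 2, where the SE was 32.8, 35.9 and 11.9. An exact permutation test of its mean log2 CPM over the 20 labellings of the pools gave a two-sided p of 0.1, the smallest that 3 pools against 3 allow.

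*gja12.1* (Entrez gene ID 492358) had 2037, 1842 and 2456 counts in cr*keap1a/b* pools, against 701, 877 and 1767 counts in WT pools. Its level was 183, 147 and 163 CPM in cr*keap1a/b* pools, against 73.4, 107 and 103 CPM in WT pools. The groups do not overlap, and both replicate 3 pools lay within the range of their group. The mean was 164 ± 18.2 CPM in cr*keap1a/b* pools and 94.6 ± 18.5 CPM in WT pools (SD, n = 3 each), and the ratio of summed counts was 1.71 (95% exact interval 1.63 to 1.78). The ratio was 1.84 among the pools with letter a and 1.59 among those with letter b. The log2 difference was 0.78 ± 0.69 and did not pass (adjusted p = 0.872 in limma-voom, exact permutation p = 0.1). Among the pools with letter a it was 0.91, with an adjusted p of 0.241 in limma-voom.

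Every cr*keap1a/b* pool lay above every WT pool for 2 of the 5 genes beside *gja11*, *gja13.1* and *gja12.1*, and 8.39% of all tested genes had that order. None of the 5 had every cr*keap1a/b* pool below every WT pool, an order that 5% of all tested genes had. In cr*keap1a/b* pools the levels of *gja11* (373 ± 92.2 CPM) and *gja13.1* (357 ± 138 CPM) did not differ beyond their spread, and *gja12.1* followed. In WT pools *gja12.1* (94.6 ± 18.5 CPM) and *gja13.1* (57.8 ± 49.7 CPM) came first, with ranges that overlap.

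The remaining 3 genes were at 0 in at least 2 pools each. *gja13.2* had 106, 764 and 0 counts in cr*keap1a/b* pools, against 147, 0 and 0 in WT pools. *gja1b*, which encodes the zebrafish counterpart of mammalian GJA1 and is known for its role in fin growth, had 2, 71 and 0 counts in cr*keap1a/b* pools, against 67, 154 and 0 in WT pools. *gjc4a.1* had 17, 24 and 0 counts in cr*keap1a/b* pools, against 0, 30 and 0 in WT pools. All 3 overlapped between the groups, and all 3 were at 0 in both replicate 3 pools. The highest of their levels was that of *gja13.2* in cr*keap1a/b* replicate 2, 60.8 CPM, above 81.4% of the genes in that pool. Their log2 differences were 2.91 ± 3.69 for *gja13.2*, -1.98 ± 3.80 for *gja1b* and 1.43 ± 3.61 for *gjc4a.1*, and none passed (adjusted p = 0.980, 0.980 and 0.999 in limma-voom). Among the pools with letter a they were 4.63 ± 2.95 for *gja13.2*, -3.18 ± 2.85 for *gja1b* and 2.08 ± 4.09 for *gjc4a.1*, and none passed (adjusted p = 0.552, 0.632 and 0.812 in limma-voom). Standard errors of this size leave changes of several log2 units in either direction undetectable in these pools. RefSeq gives *gja13.1* and *gja13.2* each other's symbol as a synonym, so they were told apart by Entrez ID. How alike their sequences are, and how reads were assigned between them, was not tested.

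Summed over the 6 genes, the gap junction level was 1109, 713 and 942 CPM in cr*keap1a/b* pools, against 184, 216 and 103 CPM in WT pools. Without *gja11*, which chose the comparison, the sums were 632, 413 and 599 CPM in cr*keap1a/b* pools, against 183, 216 and 103 CPM in WT pools, and these do not overlap either. The means without *gja11* were 548 ± 118 CPM in cr*keap1a/b* pools and 167 ± 57.7 CPM in WT pools (SD, n = 3 each), a ratio of 3.28.

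The make-up of the sum differed between the groups. *gja11* gave 42.98%, 42.02% and 36.42% of the gap junction counts in cr*keap1a/b* pools, against 0.57%, 0% and 0.06% in WT pools. *gja13.1* gave 39.52%, 27.84% and 46.23% in cr*keap1a/b* pools, against 47.44%, 39.72% and 0.39% in WT pools, so its share overlapped between the groups while its level did not. *gja12.1* gave 16.49%, 20.56% and 17.35% in cr*keap1a/b* pools, against 39.83%, 49.83% and 99.55% in WT pools. These are shares of the 6 genes analysed here, and in WT replicate 3 nearly all of their counts were from *gja12.1*.

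**Figure D2:**
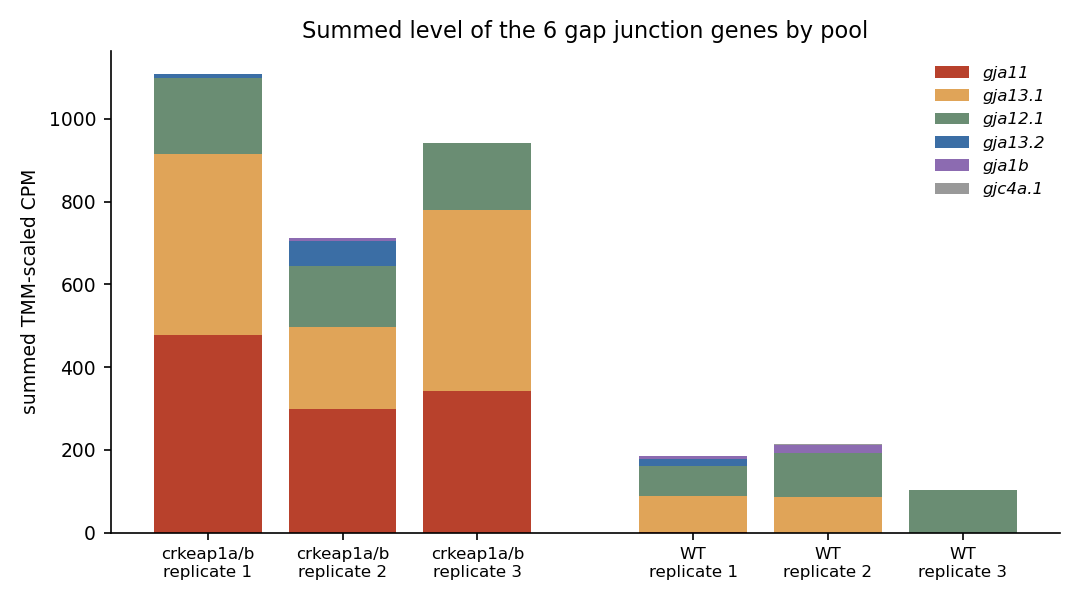
Summed TMM-scaled CPM (y axis, from 0) of the 6 gap junction genes in each liver pool, cr*keap1a/b* left and WT right, with each gene as a coloured segment. The cr*keap1a/b* pools reach 713 to 1109 CPM and the WT pools 103 to 216 CPM, and the *gja11* segment is visible only in cr*keap1a/b* pools.

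*gja11* belongs to a tandem group of connexin genes. In the RefSeq order of GRCz12tu the genes run *gja1b*, *gja13.2*, *gja12.2*, *tbc1d32*, *gja12.1*, *gja13.1*, *gja11*, *hsdl1*, the lncRNA LOC141379422 and *man1a1*. The 3 connexin genes without overlap between the groups stand next to each other in this order, and *gja1b* and *gja13.2* stand apart from them. *gja12.2*, *tbc1d32*, *hsdl1* and the lncRNA were not analysed here. The span of *tbc1d32* contains *gja11* in that assembly, and by their place in this order *gja12.1* and *gja13.1* also start within it. The strand setting of the counting is not given in the sources used here. Reads from overlapping transcripts therefore cannot be told apart for any of these 3 connexin genes.

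*man1a1*, which encodes a Golgi mannosidase that trims N-glycans, is the nearest analysed gene on the other side. It had 364, 369 and 258 counts in cr*keap1a/b* pools, against 198, 14 and 15 in WT pools. Its levels of 32.7, 29.4 and 17.2 CPM in cr*keap1a/b* pools overlapped with those of 20.7, 1.71 and 0.874 CPM in WT pools. Scaled by library totals alone they did not overlap, at 23.1 to 30.4 CPM in cr*keap1a/b* pools and 0.998 to 16.8 CPM in WT pools. The log2 difference of *man1a1*, 3.02 ± 2.76, did not pass (adjusted p = 0.886 in limma-voom). The ratio of summed counts of *man1a1* was 2.58 among the pools with letter a (95% exact interval 2.21 to 3.03) and 19.6 among those with letter b (interval 11.7 to 35.6), and with letter a alone the log2 difference was 2.15 ± 1.61 (adjusted p = 0.589 in limma-voom).

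**Figure D3:**
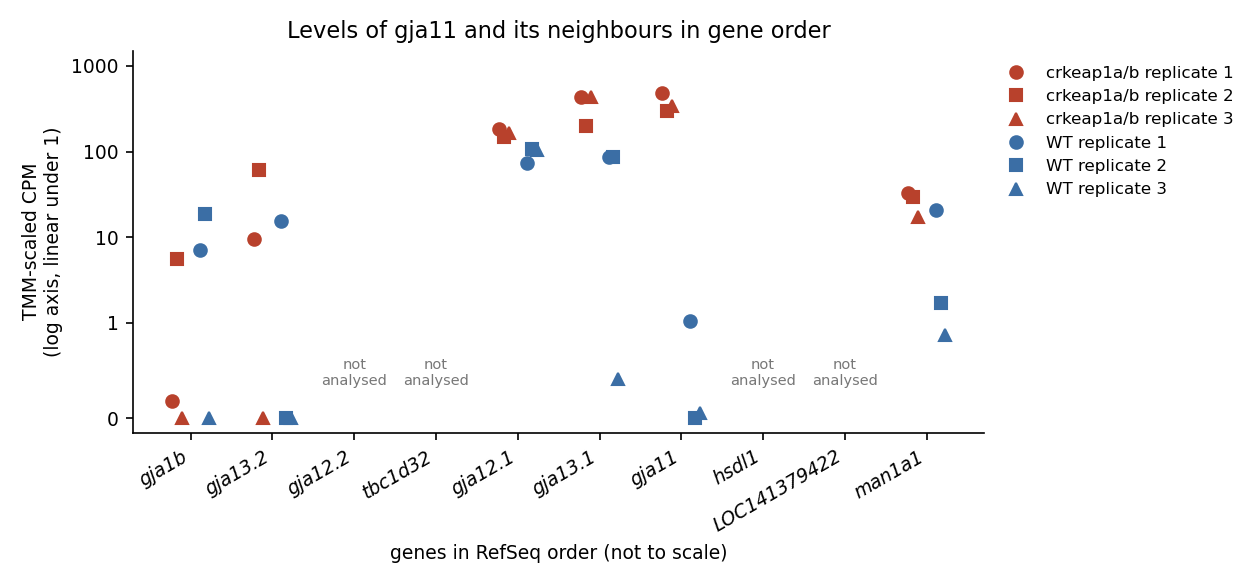
TMM-scaled CPM (y axis, logarithmic above 1 and linear below it) of *gja11* and its neighbours along the x axis in RefSeq order, not to scale, with cr*keap1a/b* in red left of WT in blue and symbols for replicates. *gja12.1*, *gja13.1* and *gja11* are adjacent and do not overlap between the groups, while *gja1b*, *gja13.2* and *man1a1* do.

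The genes with a pattern most like *gja11* were taken by Pearson's r on log2 CPM over the 6 pools, which fall into the 2 groups, so that r mostly follows the difference between them. The first 5 of 6501 genes were *ecsit*, *si:ch211-214p16.1*, *tg*, *zgc:153317* and *mfsd11*, with r of 0.988 to 0.992. *ecsit*, an adaptor of innate immune signalling that also acts in mitochondrial complex I assembly, had 206, 316 and 540 counts in cr*keap1a/b* pools, against 2, 0 and 0 in WT pools. *tg*, the thyroglobulin gene, had 609, 397 and 750 counts in cr*keap1a/b* pools, against 2, 1 and 0 in WT pools. *mfsd11*, of a transporter superfamily, had 105, 124 and 335 counts in cr*keap1a/b* pools, against 3, 0 and 0 in WT pools. *si:ch211-214p16.1* had 658, 460 and 1073 counts in cr*keap1a/b* pools, against 1, 0 and 0 in WT pools. All 5 were near 0 in WT pools, and none reached the level of *gja11* in a cr*keap1a/b* pool. Its analysed neighbours had r of 0.832 for *man1a1* (rank 254), 0.825 for *gja12.1* (rank 267) and 0.708 for *gja13.1* (rank 519). The other gap junction genes had r of 0.463 for *gja13.2*, 0.127 for *gjc4a.1* and -0.344 for *gja1b*.

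**Figure D4:**
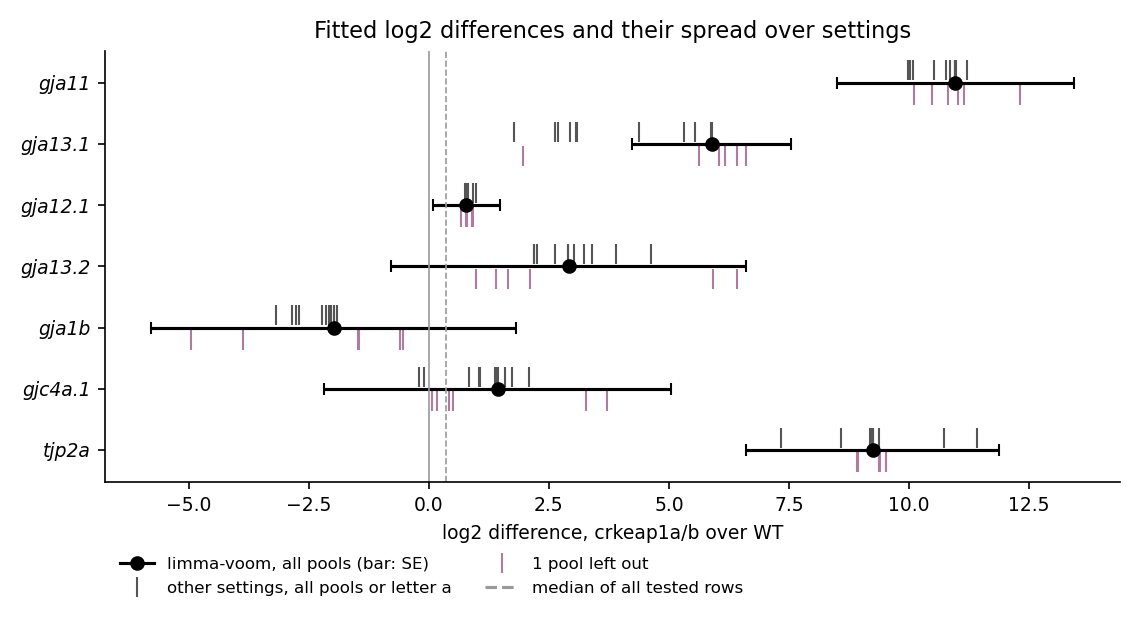
Log2 differences of cr*keap1a/b* over WT (x axis) for the 6 gap junction genes and *tjp2a*, with the limma-voom value and its SE in black, other settings as grey ticks and fits without 1 pool as purple ticks. *gja11* lies between 9.98 and 12.31, *gja13.1* ranges between 1.78 and 6.60, and *gjc4a.1* lies on both sides of 0. SEs of the ticks are not drawn.

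Other cell junction genes were taken from lists of tight junction, adherens junction, desmosome and connexin-partner genes. Of the 59 tested, 0 passed as higher and 0 as lower in limma-voom, where 0.595% of all tested genes passed each way, so that a count of 0 in a list of this size is near the background. At an unadjusted p under 0.05, 1 was higher and 0 were lower, and the same gene, *tjp2a*, was the only one under it with edgeR's quasi-likelihood test (0 past the adjusted threshold) and with DESeq2 (1 past it). Over all 6386 tested genes, 101 passed the adjusted threshold as higher with DESeq2 and 16 with edgeR's test, so 1 call in a list of this size is near the DESeq2 background. Among the pools with letter a, 0 of the 59 passed in either direction in limma-voom, with 1 at an unadjusted p under 0.05. In that fit the background was larger: 149 of the 6456 genes tested (2.31%) passed as higher and 139 as lower. Counts of 0 were common: 38 of the 59 genes were at 0 in some pool, 36 of them in a replicate 3 pool. They were common beyond these lists too, with only 1935 of the 6502 genes of the table above 0 in every pool.

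*tjp2a*, a tight junction scaffold whose mammalian counterpart can also bind connexins, had 212, 301 and 598 counts in cr*keap1a/b* pools, against 0, 0 and 0 in WT pools. All genes of the table have at least 0.512 CPM in 3 pools, a level that *tjp2a* reached through the cr*keap1a/b* pools alone. Its p-values below therefore describe these pools and are no independent support for a difference. Set against a floor of 3 counts in each WT pool, *tjp2a* in cr*keap1a/b* pools was at least 111-fold higher. Its log2 difference of 9.24 missed the threshold in limma-voom (adjusted p = 0.0584) and passed in DESeq2 (adjusted p = 0.000728). It also passed without cr*keap1a/b* replicate 3 in limma-voom (adjusted p = 0.0275), a fit in which 125 of all tested genes passed as higher. Among the pools with letter a the log2 difference of *tjp2a* was 8.59 ± 3.48 (adjusted p = 0.179 in limma-voom). Over the other settings its adjusted p went up to 1.0, in fits without 1 pool that gave it an SE of 12.5 to 58.3. Its r with *gja11* was 0.978, rank 27 of 6501.

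The paralog *tjp2b*, named outside the rules for naming genes, had 776, 706 and 1 counts in cr*keap1a/b* pools, against 882, 436 and 224 in WT pools. It overlapped between the groups. *pard3ab*, of the cell polarity complex at tight junctions, was named after its values were seen: it had 258, 207 and 214 counts in cr*keap1a/b* pools, against 61, 38 and 0 in WT pools. It did not overlap between the groups and did not pass (log2 difference 4.07 ± 3.03, adjusted p = 0.798 in limma-voom). *tjp2a* and *pard3ab* were the only 2 of the 59 genes with every cr*keap1a/b* pool above every WT pool, against 8.39% of all tested genes, and 0 had the opposite order.

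By list, the 23 tight junction genes had a median log2 difference of 0.20, the 10 adherens junction genes 0.0, the 5 desmosome genes 0.074 and the 21 connexin-partner genes -0.31, beside the median of 0.36 over all tested genes. The claudin genes *cldnb* and *cldn3d*, which encode strands of tight junctions, had log2 differences of -4.06 ± 2.84 and -3.56 ± 2.61. *cdh1* (E-cadherin) had 215, 341 and 2642 counts in cr*keap1a/b* pools, against 486, 232 and 0 in WT pools, with the replicate 3 pools at both ends of that range and a log2 difference of 4.31 ± 2.76. The catenin genes *ctnna1* and *ctnnb1* had 3.19 ± 2.83 and -3.08 ± 3.02. Their order was the reverse among the pools with letter a. There *ctnna1* was at 25.9 and 14.8 CPM in cr*keap1a/b* pools, against 28.6 and 48.0 CPM in WT pools. *ctnnb1* was at 17.7 and 27.0 CPM in cr*keap1a/b* pools, against 10.9 and 12.2 CPM in WT pools. Among the desmosome genes, *dsc2l* (a desmocollin) had -4.65 ± 2.92, and the desmoplakin genes *dspa* and *dspb* had 3.58 ± 3.34 and 1.80 ± 2.39. The kinase genes *csnk1db* and *prkacbb*, whose mammalian counterparts phosphorylate GJA1, had -4.18 ± 2.62 and 4.23 ± 2.74, and *ezrb* (ezrin) had 3.43 ± 2.56. None of these passed, with adjusted p-values of 0.741 to 0.980 in limma-voom. Of these genes, *cldnb*, *cldn3d*, *ctnnb1*, *dsc2l* and *csnk1db* were at 0 in cr*keap1a/b* replicate 3. *cdh1*, *ctnna1*, *dspa* and *prkacbb* were at 0 in WT replicate 3, where *ezrb* had 1 count. A pool at or near 0 thus weighs on each of these log2 differences, and fits with letter a alone are not given for them.

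**Figure D5:**
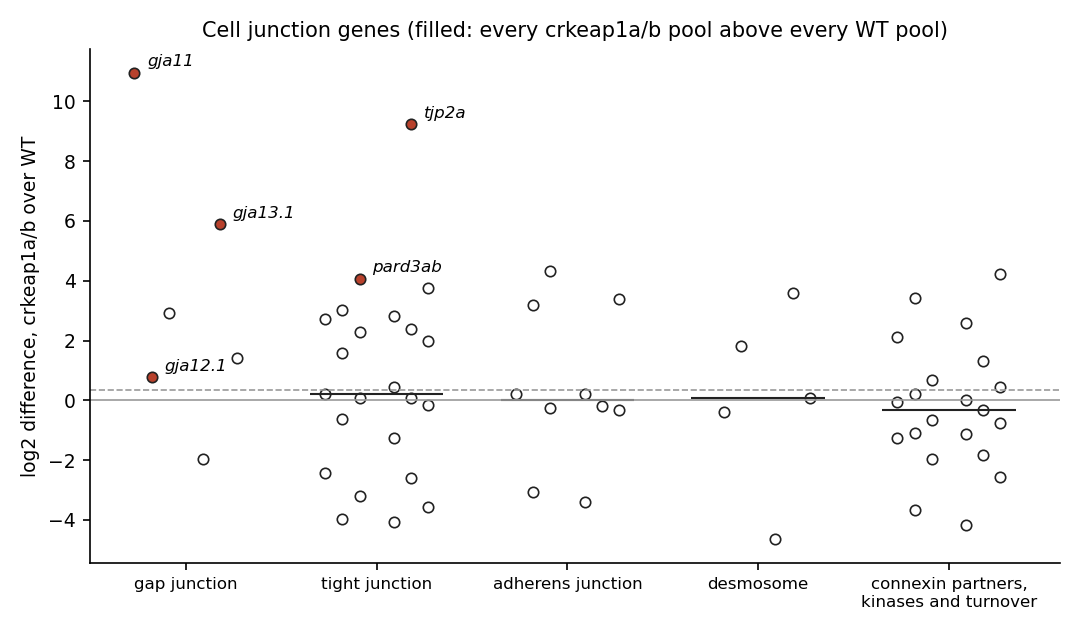
Log2 differences of cr*keap1a/b* over WT (y axis) for the 6 gap junction genes and the 59 genes of 4 junction lists (x axis), one circle a gene, with the list median as a solid line and the median of all tested genes as a dashed line. Filled circles mark genes with every cr*keap1a/b* pool above every WT pool, which were 3 gap junction genes, *tjp2a* and *pard3ab*.

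Markers of other cell types in the dissected tissue were read beside *gja11*, as sums of CPM by library total. Hepatocyte markers were abundant in both groups, at 43947 to 66310 CPM in cr*keap1a/b* pools and 53912 to 79430 CPM in WT pools over 12 genes. Of these, 1 was called lower in limma-voom, beside 0.595% of all tested genes, and 5 had an unadjusted p under 0.05. The log2 difference was above 0 for 4 of the 12 and below 0 for 8. The 12 exocrine pancreas genes summed to 9620 to 11142 CPM in cr*keap1a/b* pools and 20390 to 30810 CPM in WT pools, with 7 called lower, beside 0.595% of all tested genes. The 6 intestine genes summed to 583 to 776 CPM in cr*keap1a/b* pools and 931 to 1482 CPM in WT pools, and the 9 skeletal muscle genes to 319 to 398 CPM in cr*keap1a/b* pools and 448 to 1651 CPM in WT pools, with 0 called in either list in limma-voom (1 intestine and 0 muscle genes at an unadjusted p under 0.05). The 5 epidermis genes summed to 115 to 311 CPM in cr*keap1a/b* pools and 405 to 1183 CPM in WT pools, with 1 called lower, beside the same 0.595% of all tested genes. Scaled by library totals, the sums of these 4 lists did not overlap and were lower in cr*keap1a/b*, against the direction of *gja11*. On the TMM-scaled totals used for *gja11*, the sums of the intestine and skeletal muscle lists overlapped between the groups. The part of these tissues in the difference was not tested, and in bulk livers fewer cells of a type and less RNA per cell cannot be told apart. The 4 lens genes, of a tissue rich in connexins, summed to 99.1, 162 and 0 CPM in cr*keap1a/b* pools, against 0.0846, 45.8 and 0 CPM in WT pools. All 4 had log2 differences above 0 and none was called in limma-voom, where 0 had an unadjusted p under 0.05. The 4 neural genes summed to 0 to 79.9 CPM in cr*keap1a/b* pools and 0 to 57.4 CPM in WT pools. Both lists were at 0 in both replicate 3 pools, in which 47.65% (cr*keap1a/b*) and 53.18% (WT) of all genes were at 0, and their part in the level of *gja11* was not tested. The 5 endothelial genes summed to 35.5 to 38.2 CPM in cr*keap1a/b* pools and 18.6 to 86.8 CPM in WT pools, and the 3 biliary genes to 1017 to 1498 CPM in cr*keap1a/b* pools and 1142 to 1572 CPM in WT pools, so both overlapped. The 5 erythrocyte genes summed to 581 to 1689 CPM in cr*keap1a/b* pools and 346 to 582 CPM in WT pools, with 0 called in either direction in limma-voom and 1 at an unadjusted p under 0.05. The 2 leukocyte genes summed to 8.35 to 29.2 CPM in cr*keap1a/b* pools and 0 to 48.0 CPM in WT pools. The 6 stellate and mesenchyme genes summed to 0.0895 to 51.3 CPM in cr*keap1a/b* pools and 47.4 to 126 CPM in WT pools. Both lists overlapped, with 0 called in either direction in limma-voom.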

How the data were processed

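RNA from 6 pools of 15 zebrafish larval livers was read with QuantSeq 3′ libraries. Per the study's methods and the submitters' processing notes, the authors trimmed reads (Cutadapt 1.16), aligned them to danRer11/GRCz11 (STAR 2.7.5b) and counted them per gene (featureCounts 1.6.3). No molecular identifiers are mentioned, so reads copied from the same molecule cannot be told apart. The intervals cover only the counting error of reads taken as independent, and can be too narrow even for that. The deposited values are whole-number counts, not normalised, for 6637 rows under Entrez IDs, all with at least 0.512 CPM in 3 pools. The 135 rows without an ID, 9.818% to 13.568% of the counts, were left out of totals and tests. Symbols were matched through RefSeq (GRCz12tu) for 6426 of 6502 IDs, and no coordinates are given because that assembly is not the authors' build.

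Genes were filtered by filterByExpr, scaled by TMM and fitted with limma-voom, the study's own method, on group alone (R 4.3.3 with limma 3.58.1 and edgeR 4.0.16), with Benjamini-Hochberg adjustment over all tested genes and a threshold of 0.05. DESeq2 1.42.0, edgeR's quasi-likelihood test, other scalings and filters, and fits without each pool were alternatives. Correlations used log2 CPM with a prior count of 2. The fit was checked on simulated data with the same spread in every pool. That check does not cover the many counts of 0 in the replicate 3 pools.

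Genes were named by rule: *gja11* and the other gap junction genes, up to 3 RefSeq neighbours on either side, the 5 highest correlations, up to 3 genes with the smallest p per junction list, genes with at most 10 counts in WT and at least 1000 in cr*keap1a/b* pools, and the targeted genes. *tjp2b* and *pard3ab* were named outside these rules. The members, lists and tests were chosen with earlier results of these data known.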

Additional observations from a re-analysis of the deposited data

How the results depend on the processing

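Every pool had 9491003 counts or more, and the counts of 0 in the replicate 3 pools limit what the fits of low genes can show. Over all tested genes, 38 were higher and 38 lower with limma-voom. Higher calls were 9 with RLE factors, 16 with edgeR's quasi-likelihood test, 101 with DESeq2, 149 in the pools with letter a, 7 with the letter as a covariate, 62 at an adjusted p of 0.1, and 24 with the rows without an ID kept, which was chosen after seeing the data. Lower calls were 22 with a limma trend, 6 with edgeR, 139 in the pools with letter a and 10 with the letter as a covariate. Leaving out 1 pool at a time gave 0 to 125 higher and 1 to 71 lower calls: 0 higher without cr*keap1a/b* replicate 2 (limma-voom, 1 gene at an unadjusted p under 0.05), WT replicate 1 (4 genes) or WT replicate 2 (14 genes), and 125 without cr*keap1a/b* replicate 3.

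*gja11* stayed between 10.10 and 12.31 (log2 difference) without 1 pool, highest without WT replicate 1. Calls among the other gap junction genes were 0, or 1 (*gja13.1*) in the pools with letter a, at an adjusted p of 0.1 and without cr*keap1a/b* replicate 3 (0 to 1 over the fits without 1 pool). Calls among the junction lists were 0, or 1 (*tjp2a*) with DESeq2, at an adjusted p of 0.1 and without cr*keap1a/b* replicate 3 (0 to 1 over the fits without 1 pool). *gjc4a.1* turned to -0.092 with edgeR and -0.20 with DESeq2. The cause of these moves was not tested. Of the 5 genes most like *gja11*, 3 were kept with a prior count of 0.5 and 0 with Spearman's rho. Correlations of deviations between pools of the same replicate number were low, 0.010 to 0.074 by title number and 0.045 to 0.074 by description code. With the title number as a replicate block, 1 gene was higher and 2 lower, and with the description code as a block 2 were higher and 3 lower. By the description code every pool correlated best with its own code, but the margin was small. The r was 0.045 for codes 1 a and 2 a, against 0.043 for the pools of title number 1. Code 2 b is the replicate 3 pools, with many genes at 0, so this order does not establish a pairing. By title number only the replicate 3 pools correlated best with their own number. With the description code as a block the log2 difference was 10.84 ± 1.58 for *gja11*. For *gja13.1* it was 3.06 ± 1.59 (adjusted p = 0.757 in limma-voom).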
